A study of Homo sapiens with 12 samples.

Results

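The genes described here are the metallothioneins MT1E, MT1F, MT1G, MT1H, MT1M, MT1X and MT2A, the zinc-sensing transcription factor MTF1, the zinc exporter SLC30A1 and the zinc importer SLC39A10. They are 10 of the 19775 genes that had a probe set annotated to 1 symbol, and they were taken by symbol, with 18 of the 54675 probe sets. Each gene was read from its probe set with the highest mean over the 12 arrays, and its other probe sets served as a check. Of these genes, 9 passed the filter on low values and were tested among 13130 genes. MT1M did not pass.

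Gene expression was measured on Affymetrix arrays in Sk-hep1, an established human line that the labels place in liver and ascites and describe as an endothelial adenocarcinoma. The groups, with 3 arrays each, were HFM for 24 hours, GM for 24 hours, HFM for 12 hours and GM for 12 hours. HFM is a high-fat medium on a DMEM/F12 base, GM is the growth medium on a DMEM base, and the cells of every group had been grown in DMEM with fetal bovine serum, penicillin, streptomycin and L-glutamine. By its standard formulation the F12 part of DMEM/F12 contains zinc and copper salts, which DMEM is made without. Which fat HFM holds is not stated in the labels, metal in the media was not measured, and fat and basal medium cannot be told apart. All arrays are of 1 cell line, and no label describes its replicates as separate cultures. The p-values below therefore reflect the spread between these arrays alone, and that spread may be technical.

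The arrays are described first by their controls. Of the endothelial markers, 6 of 10 (VWF, CDH5, KDR, TEK, TIE1 and ERG) were below log2 4 on every array and only ROBO4 was at or above it on every array. Of 8 hepatocyte markers measured, ALB, APOA1, APOB and FGB were below log2 4 on every array, and TTR, SERPINA1 and CYP3A4 were at or above it on every array. Of 6 epithelial markers, KRT8, KRT18, KRT19 and ELF3 were at or above it on every array, while EPCAM and CDH1 were below it. Of 5 leukocyte markers CD79A was at or above it and PTPRC below it on every array, and of 4 mesenchymal markers VIM, COL1A1 and THY1 were at or above it. The difference between the 3' and 5' control probe sets of ACTB, used to follow RNA integrity, was 1.58 ± 0.06 in HFM and 1.07 ± 0.05 in GM at 24 hours, and 0.84 ± 0.13 in HFM and 0.89 ± 0.03 in GM at 12 hours (log2, SD, n = 3 each). The ACTB difference therefore moved with the 24-hour comparison and with time in HFM. That of GAPDH was 0.27 in HFM at 24 hours and 0.15 to 0.16 in the other groups. The part of these differences in the results was not tested. HFM replicate 1 at 12 hours was the only HFM array with the higher hybridisation control signal that the 3 GM arrays at 12 hours also had. The 12-hour changes of MT1E, SLC30A1 and SLC39A10, which were called, are also given without it. Without it, all GM arrays and no HFM array at 12 hours have the higher signal, so medium and signal cannot be told apart there. In bulk RNA, fewer cells that express a gene and less RNA of it per cell cannot be told apart.

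Metallothioneins are small cysteine-rich proteins that bind zinc and copper and buffer them in the cell. When zinc rises, MTF1 binds metal response elements before the metallothionein genes and SLC30A1 and activates them. SLC30A1 then carries zinc out across the plasma membrane, while SLC39A10 brings zinc in and is known from mouse and zebrafish to be held down by MTF1.

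The promoters of 6 of the genes could be set beside these roles. The metal response element core was searched as TGCACNC and TGCGCNC on both strands in the 250 bases before each RefSeq start. MT1H had 8 matches, MT2A 7, MT1X 4 and SLC30A1 1, while MTF1 and both starts of SLC39A10 had 0. Bases at or after the start were not searched, so a count of 0 covers only the stretch before it. Among 35116 promoters of the same length, 24.8% held at least 1 match, 0.37% at least 4 and 0.0513% at least 6. The median GC content of those promoters was 58.0%, against 70.0% for MT1X, 73.2% for MT2A and 66.4% for SLC30A1, and a match is a description of letters and not a shown binding site. No matches overlapped each other in the promoters of these genes. The promoters below (RefSeq, GRCh38.p14) are those of a metallothionein that was higher in HFM, of one that did not pass the test, and of the exporter whose probe sets disagreed. MT1X is on the plus strand at chr16:56682220-56682469, MT2A on the plus strand at chr16:56608334-56608583 and SLC30A1 on the minus strand at chr1:211579162-211579411. Each is written 5′ to 3′ along its gene, ends at the base before the transcription start, and has the matches in capitals.
MT1X: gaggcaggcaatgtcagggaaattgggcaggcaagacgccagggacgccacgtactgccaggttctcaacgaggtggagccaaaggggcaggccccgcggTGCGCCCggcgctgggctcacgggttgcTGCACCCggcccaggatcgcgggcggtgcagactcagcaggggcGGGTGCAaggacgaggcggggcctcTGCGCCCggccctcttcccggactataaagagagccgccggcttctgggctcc
MT2A: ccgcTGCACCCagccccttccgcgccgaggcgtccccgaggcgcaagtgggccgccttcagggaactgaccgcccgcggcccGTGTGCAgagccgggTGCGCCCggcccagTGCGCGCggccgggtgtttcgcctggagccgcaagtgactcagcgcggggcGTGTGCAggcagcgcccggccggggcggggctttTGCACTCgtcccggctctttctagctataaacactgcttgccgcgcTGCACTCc
SLC30A1: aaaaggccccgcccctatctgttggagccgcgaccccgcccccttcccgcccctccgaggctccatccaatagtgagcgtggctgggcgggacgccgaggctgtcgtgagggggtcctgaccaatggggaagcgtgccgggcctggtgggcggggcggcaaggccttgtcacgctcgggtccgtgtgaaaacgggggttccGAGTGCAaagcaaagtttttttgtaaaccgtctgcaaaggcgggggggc

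**Figure D1:**
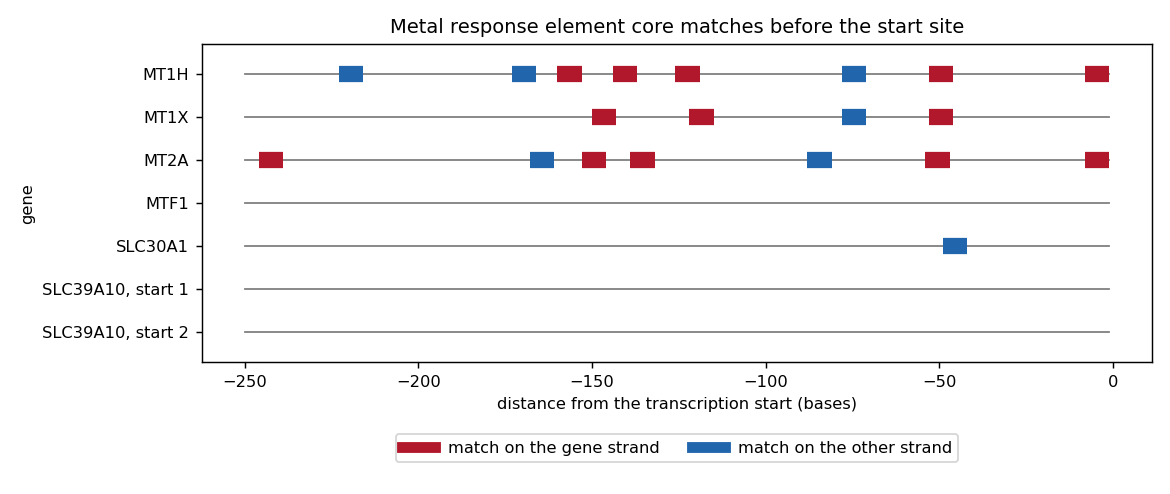
Matches to the metal response element core in the 250 bases before each RefSeq start, with the distance from the transcription start in bases on the x axis and a line per gene start. Blocks are matches on the gene strand (red) or the other strand (blue). MT1H has 8, MT2A 7, MT1X 4 and SLC30A1 1.

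At 24 hours, metallothioneins were modestly higher in HFM than in GM. MT1E, MT1F, MT1H and MT1X rose by 0.12 to 0.36 on the log2 scale, and MT1G and MT2A did not pass the test. With SLC39A10 higher and MTF1 and SLC30A1 lower, 7 of the 9 genes tested were called at an adjusted p under 0.05, against 58.1% of all genes. Of these, 5 were higher (20.6% of all genes were) and 2 were lower (37.5% of all genes were). The median log2 change was 0.12 over the 9 genes and -0.08 over all genes tested. On 7 of the 9 genes the HFM and GM arrays did not overlap, where 68.7% of all genes did not. By probe set, 12 of 15 were called, 8 higher and 4 lower, against 58.2% of all probe sets tested.

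The metallothionein genes lie in a cluster on chromosome 16, from MT2A, which starts at 56608584, to MT1X, which ends at 56684196. Their tested probe sets are all of the type _x_at, which marks probes that can match other transcripts too. Signals of near-identical family members can therefore enter each of them, and the metallothioneins below are not independent readings.

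MT1E, of the type 1 family, had log2 levels of 12.79, 12.81 and 12.78 in HFM at 24 hours, against 12.50, 12.49 and 12.33 in GM at 24 hours. Every HFM array was above every GM array. The change was 0.36 ± 0.06 (SE, adjusted p = 0.000256), a 1.28-fold difference. Its other probe set gave 11.97, 12.11 and 12.21 in HFM against 11.56, 11.49 and 11.62 in GM, again without overlap, and a change of 0.54 ± 0.07 (SE).

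MT1X, another member of the type 1 family, had log2 levels of 13.11, 13.07 and 13.09 in HFM at 24 hours, against 12.95, 12.90 and 12.91 in GM at 24 hours. The groups did not overlap, and the change was 0.17 ± 0.06 (SE, adjusted p = 0.0232). The call was lost when GM replicate 2 (0.16, adjusted p = 0.071) or 3 (0.16, adjusted p = 0.058) or HFM replicate 1 (0.16, adjusted p = 0.0678) or 3 (0.17, adjusted p = 0.0555) at 24 hours was left out. The second probe set of MT1X showed a larger difference, with 12.18, 12.06 and 12.06 in HFM against 11.18, 11.25 and 11.48 in GM. That change was 0.79 ± 0.08 (SE, adjusted p = 1.97e-06), a 1.73-fold difference. The probe sets of MT1X thus shared a direction and differed in size.

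MT1F, also of the type 1 family, averaged 12.13 ± 0.03 in HFM and 11.91 ± 0.06 in GM at 24 hours (log2, SD, n = 3 each), a rise of 0.22 ± 0.05 (SE, adjusted p = 0.00177). Its second probe set rose by 0.28 ± 0.05 (SE, adjusted p = 0.000739), and neither probe set overlapped between media. MT1H averaged 12.26 ± 0.02 in HFM and 12.15 ± 0.02 in GM, and the rise of 0.12 ± 0.04 (SE, adjusted p = 0.032) was lost when any of the 6 arrays of 24 hours was left out (adjusted p from 0.0516 to 0.0952).

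MT1G averaged 11.82 ± 0.05 in HFM and 11.75 ± 0.04 in GM at 24 hours, and its change of 0.07 ± 0.05 (SE, adjusted p = 0.21) did not pass the test. Its other probe set, which is not of the _x_at type, lay between 2.55 and 2.74 on all arrays. MT1M was read by such a probe set too and lay between 1.91 and 2.53 on all arrays. So no signal above log2 4 for a type 1 metallothionein came from a probe set outside the _x_at type.

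MT2A, the type 2 metallothionein, had log2 levels of 13.43, 13.41 and 13.40 in HFM at 24 hours, against 13.44, 13.42 and 13.39 in GM at 24 hours. The groups overlapped, and the change was -0.01 with a 95% interval from -0.10 to 0.09 (adjusted p = 0.931). The highest value of any probe set on an array was 13.89 to 13.93, so MT2A was read close to the top of the scale on every array. The main probe set of MT1X averaged 13.03. Whether closeness to the top affected the changes was not tested. The scaling of the arrays mattered for MT2A. Shifting every array to a common median over the genes tested (centring) moved the median change of all genes at 24 hours to 0.10. With it, MT2A moved to 0.17 (adjusted p = 0.0013) and MT1G to 0.25 (adjusted p = 0.000894). Of the 9 genes 8 were then called, 7 higher and 1 lower, against 63.1% of all genes.

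**Figure D2:**
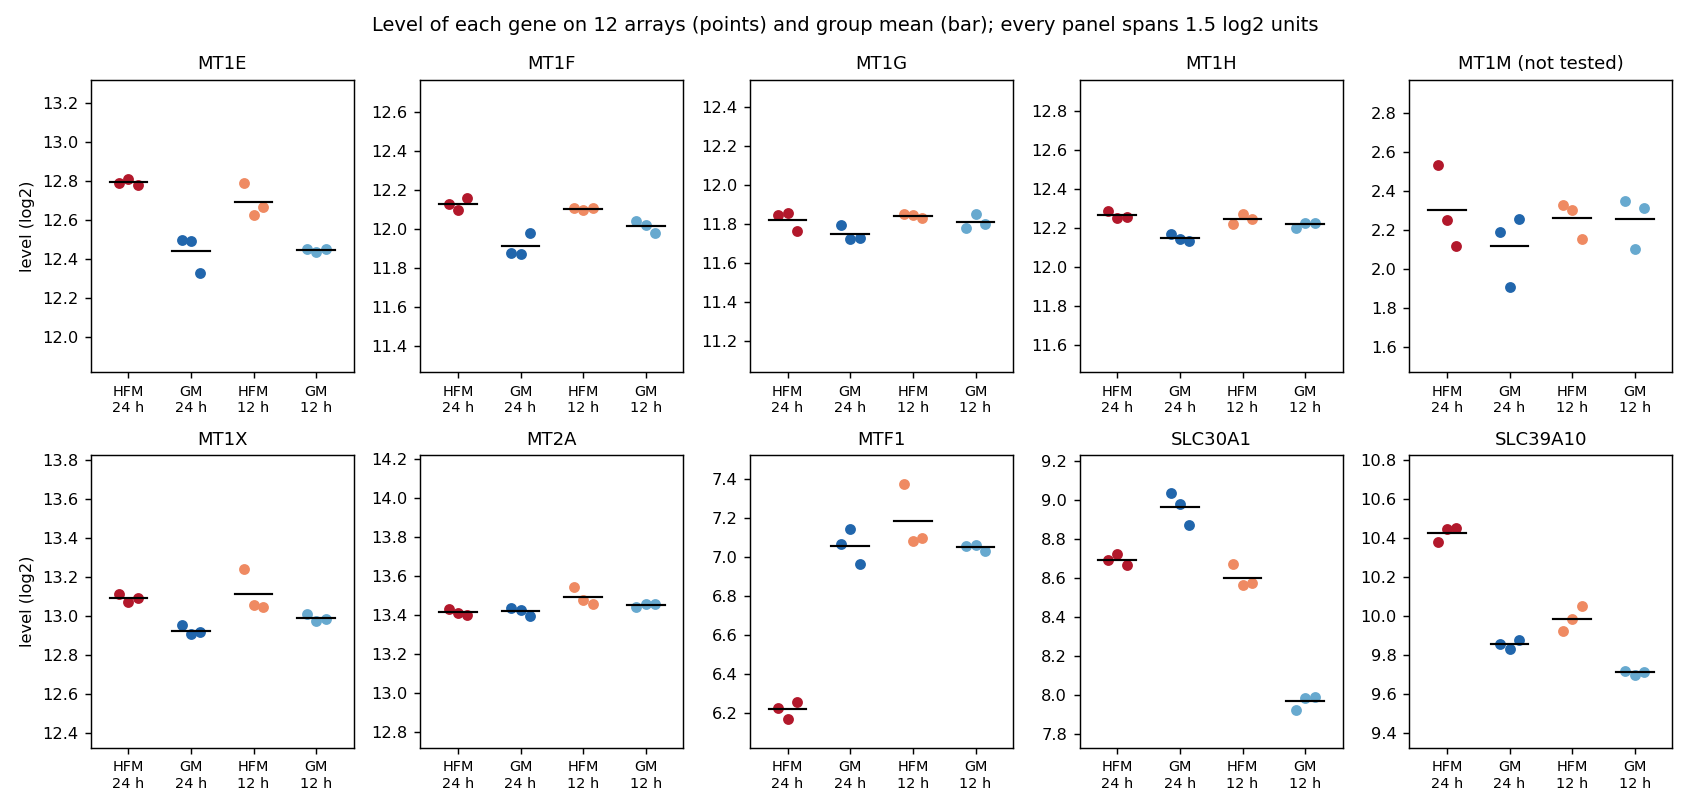
Log2 level of each gene on the 12 arrays, by medium and time, with a point per array and a bar for the mean of 3. The y axis spans the same 1.5 log2 units in every panel. MTF1 is low on the HFM arrays at 24 hours, and the metallothioneins move little.

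At 12 hours MT1E was the only metallothionein called on its main probe set. Of the 9 genes tested, MT1E, SLC30A1 and SLC39A10 were called, all higher in HFM, where 28.9% of all genes were called higher, 33% lower and 61.9% in either direction. On 6 of the 9 the media did not overlap, where 63.6% of all genes did not. Of the 15 probe sets 4 were called, all higher, against 59% of all probe sets. The median log2 change was 0.12 over the 9 genes and -0.07 over all genes tested.

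MT1E had log2 levels of 12.79, 12.63 and 12.67 in HFM at 12 hours, against 12.45, 12.44 and 12.45 in GM at 12 hours, a rise of 0.25 ± 0.06 (SE, adjusted p = 0.0036). The groups did not overlap, and the change was 0.20 without HFM replicate 1. The second probe set of MT1E gave 0.07 ± 0.07 (SE, adjusted p = 0.369). MT1X stood at 0.12 ± 0.06 (SE, adjusted p = 0.0743) and at 0.06 without HFM replicate 1. It was called without HFM replicate 3 (0.16, adjusted p = 0.044), and its second probe set rose by 0.24 ± 0.08 (SE, adjusted p = 0.017). The main probe set stood at 0.25 with hybridisation control class as a covariate, a fit that sets HFM replicate 1 alone against GM at 12 hours. MT1F, MT1G, MT1H and MT2A had changes from 0.03 to 0.09 that did not pass the test, with intervals that reached no higher than 0.19.

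The difference between the HFM effects at 24 and at 12 hours was tested as an interaction. It was called for 3 of the 9 genes, against 52.8% of all genes. MTF1 and SLC30A1 were lower (33.4% of all genes were) and SLC39A10 was higher (19.4% were). Of the 15 probe sets 8 were called, against 52.1% of all probe sets. For the metallothioneins it lay between -0.04 and 0.13 and was not called on their main probe sets. On the second probe sets it was 0.47 ± 0.09 for MT1E (SE, adjusted p = 0.00123), 0.22 ± 0.08 for MT1F (SE, adjusted p = 0.0333) and 0.56 ± 0.11 for MT1X (SE, adjusted p = 0.000954). Between 24 and 12 hours within a medium, none of the 6 metallothioneins tested was called on its main probe set, in HFM or in GM. MT1E was called in HFM without HFM replicate 1 at 12 hours (0.15, adjusted p = 0.0272). In HFM the second probe set of MT1E rose by 0.35 (adjusted p = 0.000479) and that of MT1X by 0.26 (adjusted p = 0.0105). In GM the second probe set of MT1X fell by 0.30 (adjusted p = 0.00408). After centring, all 6 were called higher at 24 than at 12 hours in HFM, by 0.14 to 0.32. Centring also moved the median change of all genes in that comparison from -0.12 to 0.10, and 68% of all genes were called.

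MTF1 was lower in HFM at 24 hours. The gene lies on chromosome 1, from 37809574 to 37859592. Its log2 levels were 6.23, 6.17 and 6.26 in HFM at 24 hours, against 7.07, 7.14 and 6.97 in GM at 24 hours. The 3 HFM arrays were well below the 3 GM arrays, and the change was -0.84 ± 0.08 (SE, adjusted p = 1.62e-06), a ratio of 0.559. Both other probe sets also fell, by 0.63 ± 0.09 and by 0.40 ± 0.10 (SE).

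At 12 hours MTF1 had 7.37, 7.09 and 7.10 in HFM, against 7.06, 7.06 and 7.03 in GM. The groups did not overlap, but the change of 0.14 ± 0.08 (SE, adjusted p = 0.139) did not pass the test, and it was 0.04 without HFM replicate 1. With hybridisation control class as a covariate, which sets HFM replicate 1 alone against GM at 12 hours, it was 0.32 (adjusted p = 0.00179). The order of the means was 7.19 in HFM at 12 hours, 7.06 in GM at 24 hours, 7.05 in GM at 12 hours and 6.22 in HFM at 24 hours. HFM at 24 hours lay below the other groups on every array. Its change against HFM at 12 hours was -0.97 ± 0.08 (SE, adjusted p = 4.77e-07), where 43.1% of all genes were called lower. The HFM effect at 24 hours minus that at 12 hours was -0.98 ± 0.11 (SE, adjusted p = 1.47e-05). That interaction was -0.57 ± 0.13 (SE, adjusted p = 0.00311) on one of the other MTF1 probe sets, and on the remaining one it was -0.31 ± 0.13 (SE, adjusted p = 0.069).

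SLC30A1, the exporter, gave opposite answers on its probe sets. The gene lies on chromosome 1, from 211571568 to 211579161. On the main probe set, the one with the higher mean, log2 levels were 8.69, 8.73 and 8.67 in HFM at 24 hours, against 9.04, 8.98 and 8.87 in GM at 24 hours. HFM was below GM on every array, with a change of -0.27 ± 0.06 (SE, adjusted p = 0.00119). On the second probe set the levels were 7.39, 7.51 and 7.48 in HFM at 24 hours, against 6.40, 6.43 and 6.47 in GM. There HFM was above GM on every array, and the change was 1.02 ± 0.07 (SE, adjusted p = 5.97e-08), a 2.03-fold difference. The mean over all 3 SLC30A1 probe sets, with one below log2 4 included, was higher in HFM by 0.23 (adjusted p = 0.000887), and centring the arrays took the main probe set to -0.09 (adjusted p = 0.107). The direction for this gene at 24 hours therefore depends on the probe set, and the cause was not tested.

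At 12 hours the same disagreement appeared in another form. On the main probe set SLC30A1 had 8.67, 8.57 and 8.57 in HFM, against 7.93, 7.99 and 7.99 in GM, a rise of 0.64 ± 0.06 (SE, adjusted p = 2.14e-06) that was 0.60 without HFM replicate 1. On the second probe set it had 6.15, 6.03 and 5.99 in HFM, against 6.10, 6.01 and 6.18 in GM, and the change of -0.04 ± 0.07 (SE, adjusted p = 0.65) did not pass the test. The mean over all 3, with the one below log2 4 included, stood at 0.08 (adjusted p = 0.137). The interaction was -0.90 ± 0.08 (SE, adjusted p = 2.11e-06) on the main probe set and 1.06 ± 0.09 (SE, adjusted p = 2.13e-06) on the second. A further SLC30A1 probe set lay between 2.37 and 2.95 on all arrays and was not tested.

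Over time in GM, both SLC30A1 probe sets rose. In that comparison 2 of the 9 genes were called, SLC30A1 and SLC39A10, both higher, where 29.4% of all genes were called higher, 40.5% lower and 69.9% in either direction. On 6 of the 9 the times did not overlap, where 78.9% of all genes did not. Of the 15 probe sets 4 were called, against 65.7% of all probe sets. SLC30A1 rose by 0.99 ± 0.06 on the main probe set (SE, adjusted p = 5.2e-08) and by 0.34 on the second. In HFM the main one stood at 0.09 ± 0.06 (SE, adjusted p = 0.17) and the second rose by 1.40. The main one was called in HFM without HFM replicate 1 at 12 hours (0.13, adjusted p = 0.048), after repeated quantile normalisation (0.15, adjusted p = 0.0232) and after centring (0.31, adjusted p = 0.000107). On the main probe set the order of the means was 8.96 in GM at 24 hours, 8.70 in HFM at 24 hours, 8.60 in HFM at 12 hours and 7.97 in GM at 12 hours, and the middle pair is the one that did not pass the test in HFM over time. The rise in GM over time and the rise in HFM at 12 hours share the GM arrays of 12 hours. All of those arrays had the higher hybridisation control signal and no array of 24 hours did. Within GM, time and that signal cannot be told apart.

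**Figure D3:**
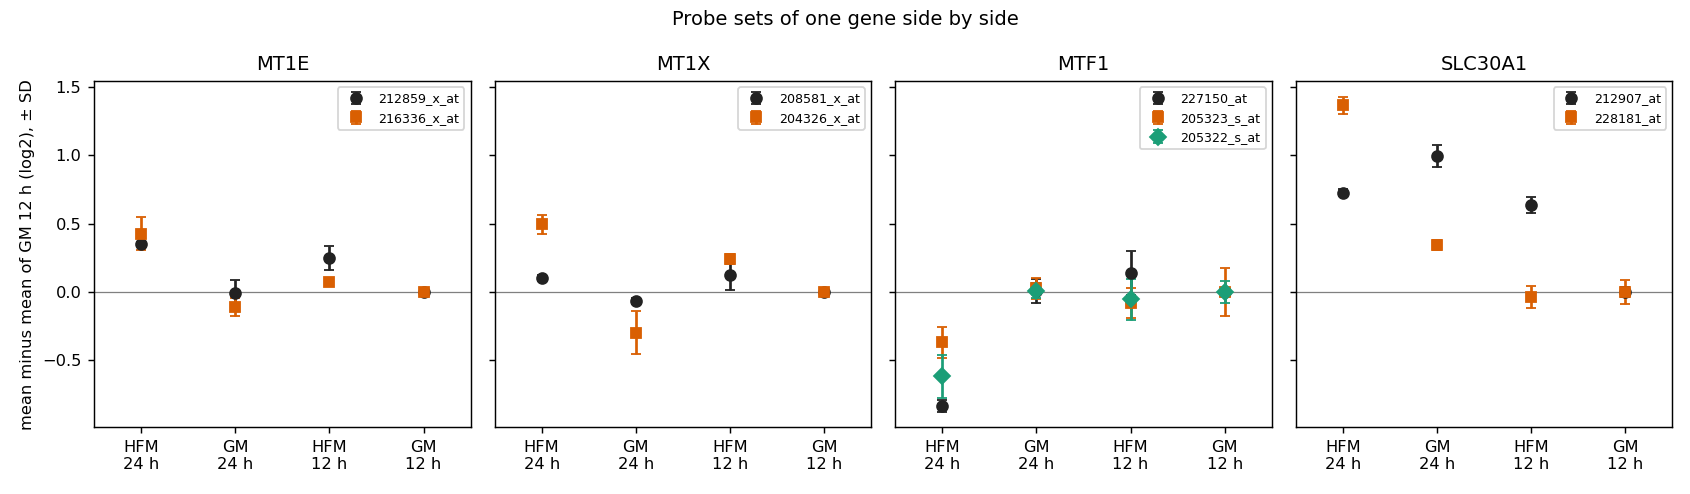
Group means of the tested probe sets of MT1E, MT1X, MTF1 and SLC30A1, each minus its own mean in GM at 12 hours (log2), with bars of ± SD over 3 arrays. The SLC30A1 probe sets separate in the other 3 groups, while the 3 MTF1 probe sets share a direction at 24 hours in HFM.

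SLC39A10, the importer, was higher in HFM at both times. It lies on chromosome 2, from 195613029 to 195737700, and was read by 1 probe set. Its log2 levels were 10.38, 10.44 and 10.45 in HFM at 24 hours, against 9.86, 9.83 and 9.88 in GM at 24 hours. The groups did not overlap, and the rise was 0.57 ± 0.05 (SE, adjusted p = 8.36e-07), a 1.48-fold difference.

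At 12 hours SLC39A10 had 9.92, 9.98 and 10.05 in HFM, against 9.72, 9.70 and 9.71 in GM, again without overlap. The rise was 0.28 ± 0.05 (SE, adjusted p = 0.000425), and 0.31 without HFM replicate 1. The effect was larger at 24 than at 12 hours, by 0.29 ± 0.07 (SE, adjusted p = 0.00329). SLC39A10 also rose with time, by 0.44 ± 0.05 in HFM (SE, adjusted p = 7.01e-06) and by 0.15 ± 0.05 in GM (SE, adjusted p = 0.0172). In HFM over time, 2 of the 9 genes were called, against 63.1% of all genes, SLC39A10 higher (20.1% of all genes were) and MTF1 lower. On 3 of the 9 the times did not overlap, where 65.9% of all genes did not, and 7 of the 15 probe sets were called, against 62.4% of all probe sets. The rise in GM was lost without GM replicate 2 at 12 hours (0.14, adjusted p = 0.0526) or GM replicate 3 at 24 hours (0.13, adjusted p = 0.0544), after repeated quantile normalisation (0.11, adjusted p = 0.0739) and with hybridisation control class as a covariate (0.05, adjusted p = 0.496). The order of the means was 10.42 in HFM at 24 hours, 9.98 in HFM at 12 hours, 9.85 in GM at 24 hours and 9.71 in GM at 12 hours, and no neighbours in it overlapped.

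**Figure D4:**
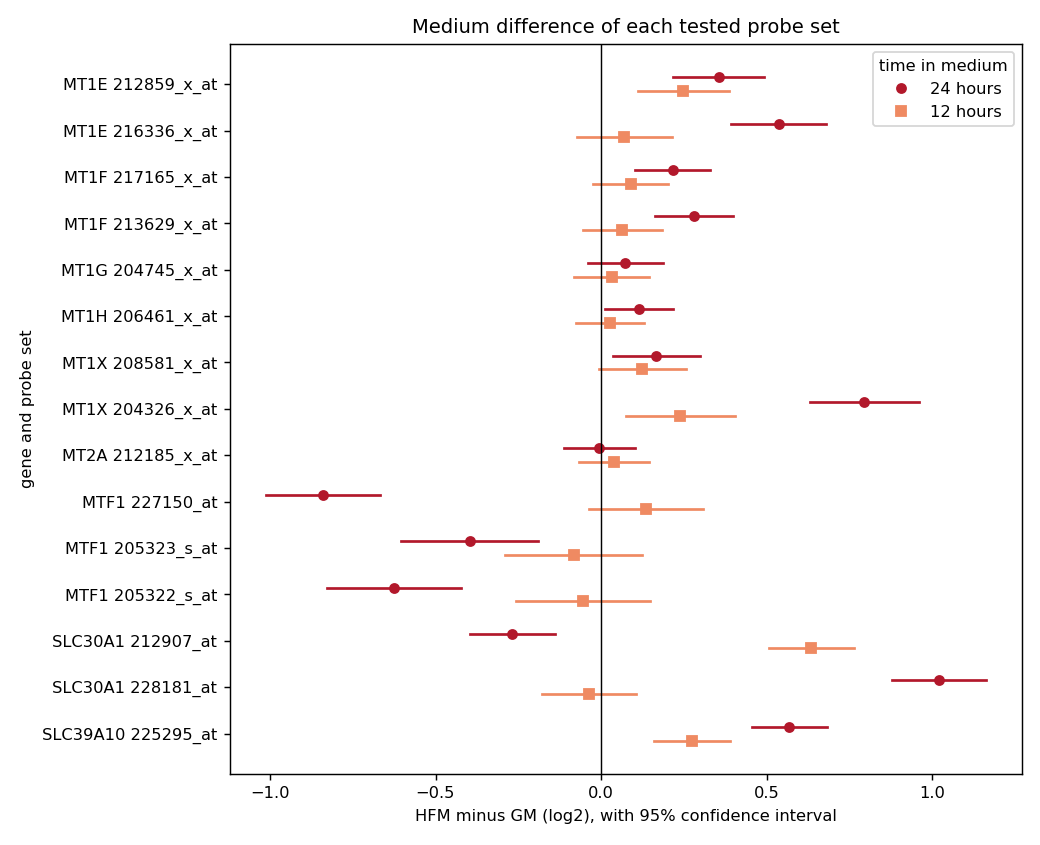
HFM minus GM for each of the 15 tested probe sets at 24 hours (circles) and 12 hours (squares), with 95% confidence intervals on a log2 axis. At 24 hours the 3 MTF1 probe sets lie below 0 and SLC39A10 above 0, and the SLC30A1 probe sets lie on opposite sides.

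Other zinc transporters moved in both directions. At 24 hours, 2 of 7 tested exporters of the ZnT family were higher in HFM and 1 was lower, where 20.6% of all genes were higher and 37.5% lower. The median was 0.08, against -0.08 for all genes. SLC30A7, which loads zinc into the Golgi, rose by 0.64 ± 0.10 (SE, adjusted p = 0.000119), and SLC30A6, a partner of SLC30A5 in the secretory pathway, fell by 0.49 ± 0.07 (SE, adjusted p = 8.34e-05). SLC30A9, a mitochondrial transporter, stood at 0.20 ± 0.06 (SE, adjusted p = 0.00872) and at -0.10 as the mean of all its probe sets, whatever their level. At 12 hours, 5 of the 7 were higher and 1 was lower, where 28.9% of all genes were higher and 33% lower, with a median of 0.35 against -0.07 for all genes. SLC30A9 rose by 0.49 and SLC30A4, a vesicular transporter, by 0.45, though by 0.10 (adjusted p = 0.125) as the mean of its probe sets. SLC30A2, also a vesicular transporter and read near the filter with a mean of 4.01, fell by 0.29, and by 0.14 (adjusted p = 0.12) without HFM replicate 1.

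Of 11 tested importers of the ZIP family, 6 were higher and 1 was lower in HFM at 24 hours, with a median of 0.24 against -0.08 for all genes, of which 20.6% were higher and 37.5% lower. SLC39A7, which releases stored zinc from the ER, rose by 0.61 ± 0.09 (SE, adjusted p = 0.000103) and SLC39A9 rose by 0.44, while SLC39A8, an importer of zinc and manganese, fell by 0.72 ± 0.07 (SE, adjusted p = 1.79e-06). At 12 hours 2 were higher and 4 were lower, with a median of -0.20 against -0.07 for all genes, of which 28.9% were higher and 33% lower. SLC39A6, the closest relative of SLC39A10, rose by 0.24, and the plasma membrane importers SLC39A1 and SLC39A3 fell by 0.54 and 0.50. SLC39A9 stood at 0.32, and at -0.17 as the mean of its probe sets.

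Among the other metallothionein genes, 3 of 9 were measured. MT1HL1, a relative on chromosome 1, was higher in HFM at 24 hours by 0.16 ± 0.04 (SE, adjusted p = 0.00832) on a probe set of the _x_at type. MT4, which lay near log2 4.6, fell by 0.31 at 12 hours (adjusted p = 0.03), and by 0.15 (adjusted p = 0.0587) without HFM replicate 1. Of 5 other genes reported as MTF1 targets, 3 were tested. At 24 hours PGF, a growth factor of the VEGF family, was higher by 0.34 on a probe set of the _x_at type whose groups overlapped (0.10, adjusted p = 0.436, on its probe set outside that type) and SELENOH, a nuclear selenoprotein, by 0.12 (adjusted p = 0.104 without GM replicate 2). At 12 hours SELENOH fell by 0.20, and by 0.09 (adjusted p = 0.144) as the mean of its probe sets.

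Copper handling genes were included because metallothioneins also bind copper. Of 8, 1 was higher and 2 were lower in HFM at 24 hours, where 20.6% of all genes were higher and 37.5% lower. At 12 hours 2 were higher and 2 lower, where 28.9% of all genes were higher and 33% lower. COX17, which delivers copper for cytochrome oxidase, is counted among those higher at both times. It had log2 levels of 5.61, 5.50 and 5.90 in HFM at 24 hours and was below log2 4 on every other array, with 3.52, 3.55 and 3.64 in GM at 24 hours. It was thus tested only through the group in which it was high, and its values are a description. Both of its groups at 12 hours lay below log2 4 and overlapped, and without HFM replicate 1 the 12-hour change was 0.49 (adjusted p = 0.0779). The other probe set of COX17 is annotated to several genes and was not used. SLC31A2, a membrane protein that affects copper uptake, fell by 0.84 ± 0.06 (SE, adjusted p = 2.62e-07) at 24 hours and by 0.48 at 12 hours. ATP7A, a copper pump, fell by 0.24 at 24 hours (by 0.06 after centring, adjusted p = 0.355), its relative ATP7B rose by 0.49 at 12 hours, and CCS, the copper chaperone of superoxide dismutase, fell by 0.38 at 12 hours.

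**Figure D5:**
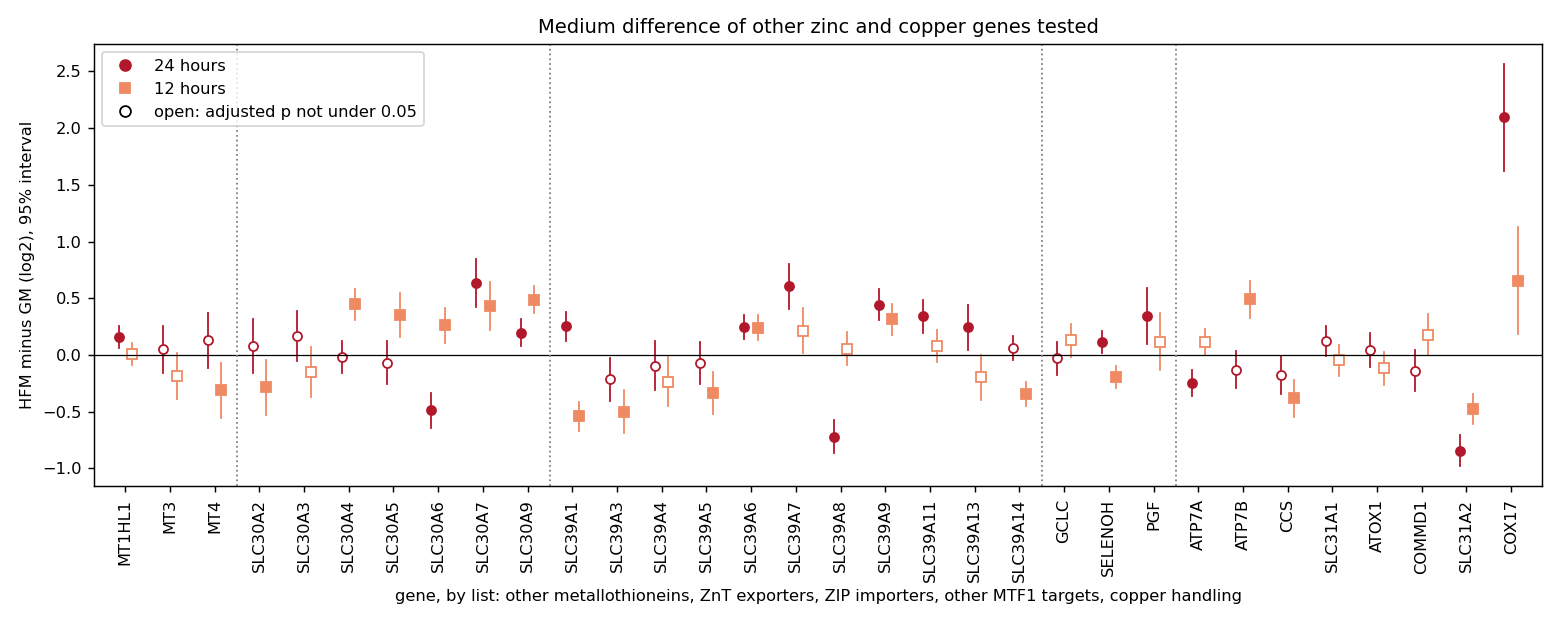
HFM minus GM (log2, 95% intervals) at 24 hours (circles) and 12 hours (squares) for the tested genes of 5 lists, separated by dotted lines. Filled symbols passed an adjusted p of 0.05. COX17 was tested only through its levels in HFM at 24 hours, and ZIP and ZnT genes lie on both sides of 0.

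The genes with the pattern most like the main probe set of SLC30A1 over the 12 arrays were COPS2, ZHX1 and KRR1. Their centred log2 values differed from it by a root mean square of 0.06 for COPS2 and 0.07 for ZHX1 and KRR1, where SLC30A1 itself had a root mean square of 0.37 about its mean. Like it, they were lowest in GM at 12 hours, and COPS2 averaged 10.17 in HFM and 10.44 in GM at 24 hours, and 10.03 in HFM and 9.44 in GM at 12 hours. MT1E, the metallothionein whose group means varied most, was nearest to CCNI, IAH1 and SERPINE2, at 0.04 to 0.05, with its own root mean square at 0.16.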

How the data were processed

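Per the submitters' processing notes, the authors used GCRMA, and the deposited values are log2 expression per probe set. Its version was not stated, and precision is limited by the number of arrays. Probe sets were named from the platform annotation, and 41043 of 41097 probe sets with 1 symbol matched the reference, with 0 symbols changed. The test took genes that reached log2 4 on 3 or more arrays. In R 4.3.3, limma 3.58.1 (lmFit, eBayes) fitted a mean for each of 4 groups over all 12 arrays. Its p-values were Benjamini-Hochberg adjusted over 13130 genes or, for values of other probe sets, 29787 probe sets. The pipeline was tested on simulated data. The genes and lists were chosen with earlier results of these data known. All 10 genes are named whatever their values, up to 2 called rises and 2 called falls of each list per medium comparison, and 3 pattern neighbours of SLC30A1 and of the most variable metallothionein. Promoter sequences are from RefSeq (GRCh38.p14), and of 10 genes 6 matched. Alternatives were other filters, probe set rules, scalings, fits and left-out arrays. Figures used matplotlib 3.10.9.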

Additional observations from a re-analysis of the deposited data

Results flagged for a closer look

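The HFM effect differed between 24 and 12 hours for 3 of the genes by limma's interaction test with Benjamini-Hochberg adjustment. MTF1 had an HFM effect of -0.84 at 24 hours and 0.14 at 12 hours, a difference of -0.98 (adjusted p = 1.47e-05). SLC30A1 on its main probe set had effects of -0.27 and 0.64, a difference of -0.90 (adjusted p = 2.11e-06), while its second probe set differed by 1.06. SLC39A10 had effects of 0.57 and 0.28, a difference of 0.29 (adjusted p = 0.00329). The ACTB 3' to 5' difference was larger in HFM at 24 hours, and its part in these differences was not tested.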

How the results depend on the processing

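Among the medium comparisons, the falls of MTF1 at 24 hours and the rises of SLC39A10 at both times kept their direction and side of the threshold under all 10 settings and all 12 left-out arrays. Averaging all probe sets of a gene, whatever their level, reversed SLC30A1 at 24 hours (0.23) and in the interaction (0.15), and turned SLC30A9 at 24 hours to -0.10, MTF1 and SLC39A9 at 12 hours to -4e-04 and -0.17, and MT1X over time in HFM to 0.12. The genes called then numbered 4 over time in HFM (65.6% of all genes were called) and 5 in the interaction (54.5%), against 2 and 3. Without _x_at probe sets only 3 genes were tested, and all 3 were called at 24 hours, against 7. There 58.9% of all genes were called. Centring adds the same constant to every gene of an array. The median change of all genes moved from -0.12 to 0.10 over time in HFM and from -0.04 to 0.16 in the interaction. Centring called 9 over time in HFM (68% of all genes were called) and 9 in the interaction (62.5%). It turned MT2A to 0.17 at 24 hours, 0.14 over time in HFM and 0.16 in the interaction, MT1G and MT1X over time in HFM to 0.20 and 0.19, and MT1E over time in GM to 0.0086. Repeated quantile normalisation gave 0.0083 for MT2A at 24 hours, 0.0093 for MT1G over time in HFM, and 0.0191 for MT1E and -0.0487 for MTF1 over time in GM. Robust trended eBayes called 5 at 12 hours (62.6% of all genes were called) and 4 over time in GM (69.6%). With hybridisation control class as a covariate, 4 were called over time in HFM, where 64.4% of all genes were called. MT1X then stood at 0.0412 over time in HFM, 0.13 over time in GM and -0.085 in the interaction. Over time in GM, MT1E stood at 0.14, MT2A at 0.0451 and MTF1 at 0.29. Only HFM at 12 hours held arrays of both classes, with 1 of 3 in the higher class. That array alone therefore sets the class difference in this fit. The cause of the other shifts was not tested. Leaving out 1 array called 5 to 7 genes at 24 hours, 3 to 4 at 12 hours and 3 in the interaction, and 11 to 13 probe sets at 24 hours. With all 12 arrays, 58.1% of all genes were called at 24 hours, 61.9% at 12 hours and 52.8% in the interaction. Of all probe sets, 58.2% were called at 24 hours. Over time, leaving out 1 array called 2 to 4 in HFM and 1 to 3 in GM. The 4 came without HFM replicate 1 at 12 hours (64.4% of all genes were called) and the 1 without GM replicate 2 at 12 hours (64.6%). Changes near 0 also turned sign then. MT2A at 24 hours ranged from -0.0176 to 0.0043. Over time in HFM, MT1G ranged from -0.0381 to 0.0093 and MT1X from -0.0577 to 0.0412. Over time in GM, MT1E ranged from -0.0354 to 0.0486 and MTF1 from -0.0343 to 0.0535. A replicate block left 7 genes called at 24 hours (59.1% of all genes were called) and 3 at 12 hours (63%). It left 2 over time in HFM (63.7%), 2 over time in GM (70.4%) and 3 in the interaction (53.9%), and 12 probe sets (58.7% of all probe sets). Same-numbered arrays deviated together at r over 0.1 in 7 of 18 pairs across genes, and arrays of different number in 9 of 36 pairs. Deviations from means of 3 arrays cannot decide whether the numbers pair the arrays.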
